A study of Arabidopsis thaliana with 2 samples.

Results

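The 60 genes described here encode proteins of the cytosolic 80S ribosome of Arabidopsis, 32 for the small 40S subunit and 28 for the large 60S subunit. They were chosen by gene identifier from a list of cytosolic ribosomal protein genes. No measured value was in the rule, although earlier results of these data were known. These genes make up 60 of the 25224 genes in the exon table. They fall into 30 families of paralogs that encode the same subunit protein, of which 5 are represented by 1 gene, 20 by 2 and 5 by 3. All 60 passed the filter on low values (a mean exon value of at least 1 RPM, the reads of a feature scaled to the size of its library, over both libraries), which 16879 genes passed in all.

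Membrane-bound polysomes (MBPs) were isolated from wild-type (WT) Arabidopsis seedlings that were 13 days old and had grown on ½ MS plates in 16 h of light and 8 h of darkness. The MBP ribo-seq library holds the short RNA fragments that ribosomes shielded from RNase I, taken from the monosome zone of a sucrose gradient, and the MBP mRNA-seq library holds the RNA of the MBP fraction. Each assay had 1 library, so no difference below has a replicate check, and all intervals are 95% counting intervals that cover the sampling of reads only. Free polysomes were not part of these files, so the values say nothing of how these transcripts divide between membrane and cytosol, and since whole seedlings were used, fewer cells of a type and less RNA per cell cannot be told apart. The photosynthetic tissue of the label was seen in RBCS1A, a Rubisco small subunit gene, at 9535 RPM of footprints and 13066 RPM of mRNA reads.

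Each ribosome carries most of its proteins in a single copy, so plant cells make the products of a large set of genes in near equal amounts. Arabidopsis keeps a family of paralogs for nearly every ribosomal protein, and many mutants in a single paralog have pointed leaves, small organs or arrested embryos. The proteins are made in the cytosol, imported into the nucleus and built into subunits in the nucleolus, and none of them is known to enter the secretory pathway. Their promoters are known for short elements called the telo-box and site II.

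These elements were searched on both strands from 250 bases before to 50 bases after each gene start of the RefSeq annotation (build TAIR10.1). The telo-box, AAACCCTAA, was found in 18 of 60 members (30%) against 888 of 25033 promoters of that length (3.55%). Site II, TGGGCC or TGGGCT, was found in 48 members (80%) against 22.7% of all promoters, and both elements stood together in 15 members (25%) against 1.36%. A match describes these letters only and does not show a bound site. In most of the 18 members the first telo-box began after the gene start, by up to 34 bases (AT5G58420). The windows below show 4 telo-boxes that lie before the gene start, on the strand of the gene and with the telo-box in capitals (TTAGGGTTT is its reverse), from genes whose levels are described further on. They lie at chr1:27244956-27244985 (minus strand), chr3:3779539-3779568 (minus), chr5:4936420-4936449 (minus) and chr2:15620146-15620175 (minus).
AT1G72370 (P40, RPSA family): attttgcaaaTTAGGGTTTtgcttgatata
AT3G11940 (RPS5A): attagagcccAAACCCTAAatttctcatct
AT5G15200 (RPS9 family): gagtgtagcgTTAGGGTTTtaagaaatcct
AT2G37190 (RPL12 family): tctctttcgtAAACCCTAAttttcacactc

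The paralogs of a family have similar coding sequences, which decides whether a short read can be assigned to one of them. For each member, the share of its coding windows of 28 bases that also occur in another gene's coding sequence or elsewhere in the nuclear genome was counted. The median was 1.98%, 51 of 60 members were below 10% and 12 shared none. Only the RPL9 pair exceeded 50%, with 83.9% for AT1G33120 and 86.9% for AT1G33140 (PGY2, a gene known from leaf patterning mutants). The 2 genes encode identical proteins and their coding sequences are 99.1% identical, so reads of this pair could not be assigned to either gene with certainty, and their sum depends on how reads with several map positions were treated. Windows of 30 coding bases from 4 pairs whose ratios are compared below are shown with the bases that differ between the paralogs in capitals, followed by the start of the RPL9 pair, which holds no difference. In the order printed they lie at chr3:2824991-2825020 (minus), chr3:3521453-3521482 (plus), chr2:9236722-9236751 (plus), chr4:18257563-18257592 (plus), chr3:1361016-1361045 (plus), chr5:10070736-10070765 (minus), chr2:16475375-16475404 (plus), chr3:20501007-20501036 (plus), chr1:12010986-12011015 (plus) and chr1:12023360-12023389 (plus).
RPP0 AT3G09200: atggtgaaAgcaacTaaGgcagagaagaag
RPP0 AT3G11250: atggtgaaGgcaacAaaAgcagagaagaag
RPS25 AT2G21580: gcgccAaagaaggataaggttccAccaccg
RPS25 AT4G39200: gcgccGaagaaggataaggttccGccaccg
RPS24 AT3G04920: accagGaaAttcatgaccaacagActtctc
RPS24 AT5G28060: accagAaaCttcatgaccaacagGcttctc
RPL23a AT2G39460: TaccaagaaGgcTgaTcctaaggcCaaggc
RPL23a AT3G55280: CaccaagaaAgcCgaCcctaaggcTaaggc
RPL9 AT1G33120: atgaagacgattctttcttccgaaacgatg
RPL9 AT1G33140: atgaagacgattctttcttccgaaacgatg

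Transcripts of the ribosomal protein genes were abundant on MBPs, and so were the footprints on them. The members together held 8880 RPM of exon footprints and 12369 RPM of exon mRNA reads. This was 1.77% (Wilson interval 1.76 to 1.77) of the exon reads of all genes in ribo-seq and 1.48% (1.47 to 1.48) in mRNA-seq, from 0.238% of the genes. The footprints divided into 4322 RPM on 40S genes and 4558 RPM on 60S genes, and the mRNA reads into 5947 RPM and 6421 RPM. The exon value of a single member ran from 4.94 to 472.9 RPM in ribo-seq, with a median of 125.1, and from 5.69 to 610.0 RPM in mRNA-seq, with a median of 177.2. At least 100 RPM was reached by 36 members in ribo-seq and by 47 in mRNA-seq. Of all 25224 genes, 1572 reached it in mRNA-seq, and the number in ribo-seq was not counted. The members are short genes, with coding sequences of 195 to 1224 bases and a median of 624 against 1209 for all tested genes. Per kb of coding sequence, their median was 240.3 RPM in ribo-seq against 5.53 for all tested genes, and 320.0 RPM in mRNA-seq against 13.9. In each library 55 of 60 members exceeded the 90th percentile of all tested genes by this density.

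**Figure D1:**
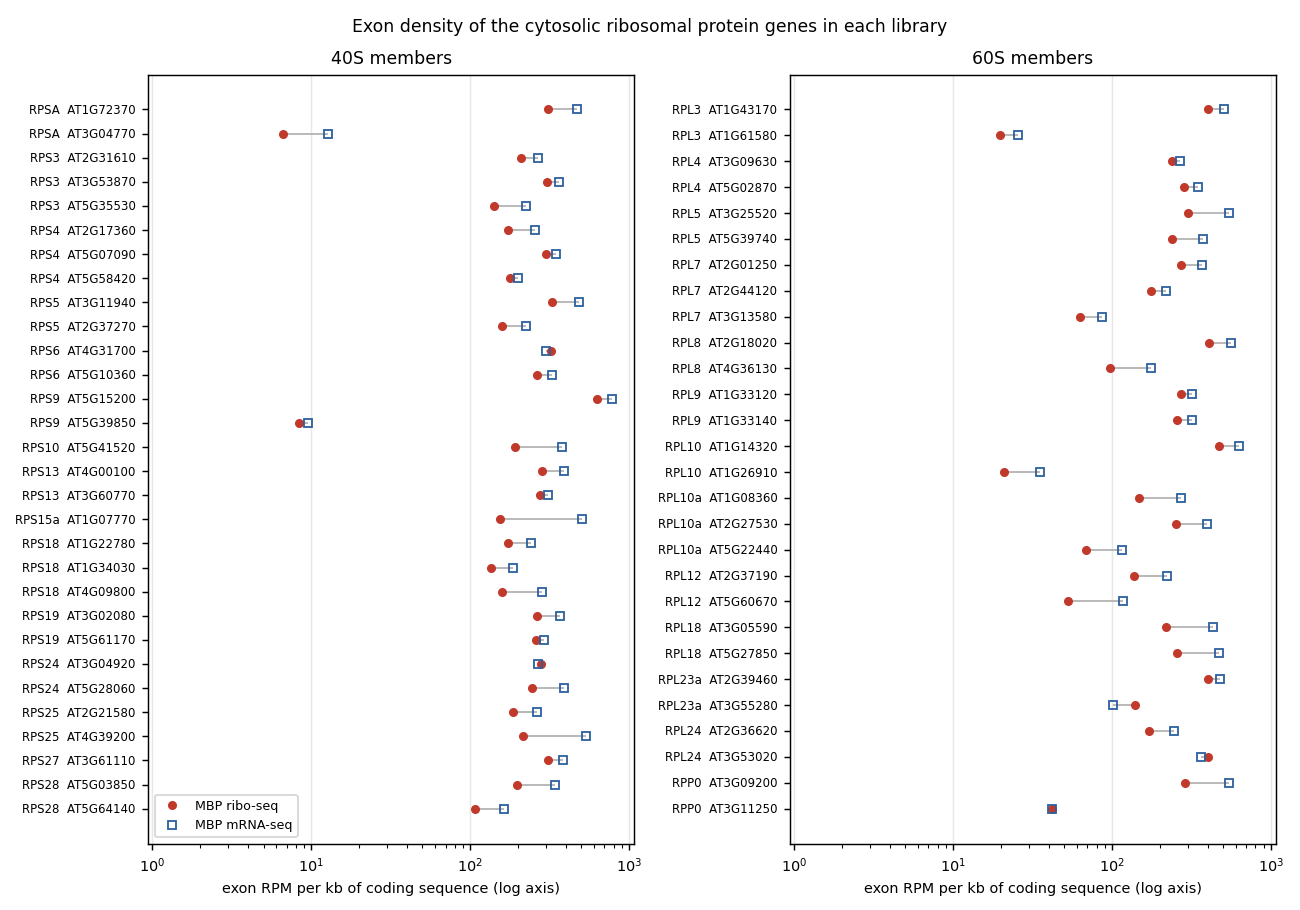
Exon density of 58 members in RPM per kb of coding sequence (log axis), by subunit, in MBP ribo-seq (filled circles) and MBP mRNA-seq (open squares), 1 library each, with families named as for the cytosolic ribosome. AT5G15200 at 782.9 RPM per kb is the highest of the 58 members drawn in mRNA-seq, AT3G04770 and AT5G39850 lie far below the rest, and the ribo-seq value is the lower one for all members but 4.

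The highest densities were found in both subunits, beside paralogs at a small part of their level. Among the 40S genes, AT5G15200, of the RPS9 family, whose protein sits at the mRNA entry of the 40S subunit, had 629.3 RPM per kb in ribo-seq and 782.9 in mRNA-seq. Its paralog AT5G39850 had 8.32 and 9.58 RPM per kb, the lowest mean of all members. P40 (AT1G72370), which encodes RPSA, a protein related to the animal laminin receptor, had 309.6 and 472.7 RPM per kb. Its paralog RPSAb (AT3G04770) had 6.64 and 12.7 RPM per kb. These 2 low paralogs were the only members with a mean exon value below 10 RPM, and in both families 1 gene held over 97% of the summed density in each library.

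On the 60S side, SAC52 (AT1G14320), an RPL10 gene found as a suppressor of the acaulis5 mutant, had 469.3 RPM per kb in ribo-seq and 632.7 in mRNA-seq. EMB2296 (AT2G18020), an RPL8 gene needed for embryo development, had 407.3 and 559.2 RPM per kb. RP1 (AT1G43170), which encodes RPL3, a protein close to the peptidyl transferase centre, had 404.2 and 508.8 RPM per kb and, with 472.9 RPM, the most footprints of any member. RPL23AA (AT2G39460), whose protein lies at the exit of the peptide tunnel, had 401.4 and 476.3 RPM per kb. The lowest 60S densities belonged to the weaker paralogs of their families. RPL3B (AT1G61580) had 19.8 and 25.6 RPM per kb, RPL10B (AT1G26910) 20.8 and 35.1, AT3G11250 of the RPP0 family 41.8 and 42.0, and AT3G13580 of the RPL7 family 63.3 and 87.2.

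Footprints were then set against mRNA for each gene. The ratio is log2 of ribo-seq over mRNA-seq exon RPM with a pseudocount of 1, given minus the median of all tested genes, which was -0.99 before that subtraction. The members' median was 0.53 above the median of all tested genes, with quartiles of 0.30 and 0.71 against -0.55 and 0.47 for all tested genes. A ratio above the median was found for 57 of 60 members, where 50% of all tested genes lie by definition. More than 2-fold above the median were 4 of 60 members (6.67%) against 5.59% of all tested genes, and more than 2-fold below were 0 of 60 against 11.8%. The members were therefore shifted upwards as a group, while their share of large ratios was near the background. The counting interval lay above the median for 54 members and below it for 3, with a median half-width of 0.049 on the log2 scale. Intervals came from the reads without the pseudocount, while that median includes it, so the side of members close to the median is uncertain. The exact binomial test of the reads, added after seeing the data, called 57 members higher and 2 lower. It also called 6734 of all 16879 tested genes higher and 6685 lower, so a call by this test was common.

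**Figure D2:**
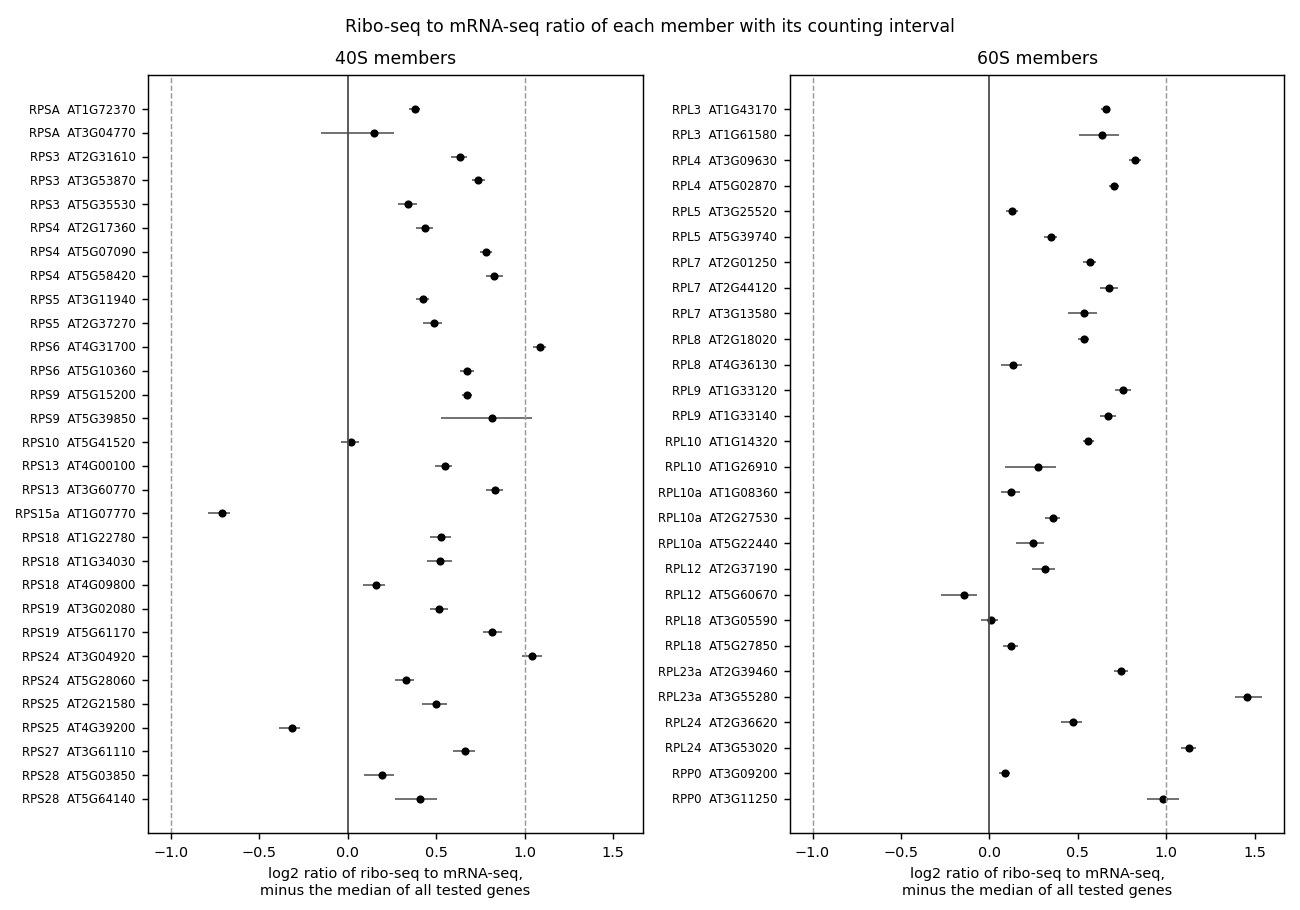
Footprints relative to mRNA for 58 members, as log2 of the quotient of exon RPM, minus the median of all tested genes (solid line at 0), by subunit, with horizontal bars for 95% counting intervals and dashed lines at 2-fold. AT3G55280 at 1.46 is the highest member and AT1G07770 at -0.71 the lowest. The bars were computed without the pseudocount, which the points and the solid line include.

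The 40S and 60S genes did not separate by ratio. The median was 0.52 for the 32 genes of the 40S subunit and 0.53 for the 28 of the 60S subunit, a difference of -0.01, and 30 and 27 of them were above the median of all tested genes.

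Of the 6 highest ratios, 3 belonged to 60S genes. RPL23AB (AT3G55280), the paralog of RPL23AA, had 65.4 RPM of footprints and 47.1 RPM of mRNA reads, a ratio of 1.46 (1.39 to 1.54). STV1 (AT3G53020), an RPL24 gene known for its part in reinitiation after upstream reading frames and in gynoecium patterning, had 197.4 and 179.5 RPM, a ratio of 1.13 (1.08 to 1.17). AT3G11250 of the RPP0 family had 40.6 and 40.9 RPM and a ratio of 0.98 (0.89 to 1.07). The 3 others were 40S genes. RPS6 (AT4G31700), whose protein is phosphorylated downstream of the TOR kinase, had 241.4 and 225.9 RPM, a ratio of 1.08 (1.05 to 1.12). AT3G04920 of the RPS24 family had 111.4 and 107.4 RPM, a ratio of 1.04 (0.99 to 1.10), so its interval reached across the 2-fold line. AT3G60770 of the RPS13 family had 126.2 and 140.9 RPM and a ratio of 0.83 (0.78 to 0.88). The ribo-seq RPM exceeded the mRNA-seq RPM in 4 of 60 members, and these were the 4 more than 2-fold above the median. Since the median of all tested genes was -0.99, this limit nearly equals the 2-fold limit, which 5.59% of all tested genes passed. By density, RPL23AB and AT3G11250 lay below the members' median in both libraries and STV1 lay above it in both.

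The lowest ratio was that of RPS15A (AT1G07770), the RPS15a member, with 60.4 RPM of footprints and 198.6 RPM of mRNA reads, a ratio of -0.71 (-0.79 to -0.66). AT4G39200 of the RPS25 family had 70.6 and 175.9 RPM, a ratio of -0.32 (-0.39 to -0.27). AT5G60670 of the RPL12 family, which helps to form the base of the ribosomal stalk, had 26.3 and 58.9 RPM, a ratio of -0.14 (-0.27 to -0.07). These were the 3 members below the median. Close to it were RPL18 (AT3G05590) with 124.0 and 245.9 RPM and a ratio of 0.01 (-0.05 to 0.05), RPS10B (AT5G41520) with 104.6 and 205.6 RPM and a ratio of 0.02 (-0.04 to 0.06), and AT3G09200 of the RPP0 family with 279.5 and 522.7 RPM and a ratio of 0.09 (0.05 to 0.12). The intervals of RPL18, RPS10B and RPSAb, taken without the pseudocount, reached across the median of all tested genes, which was taken with it. The side of the median is therefore uncertain for these genes and for AT5G60670.

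Of the members given without a paralog, RPS15A and RPS10B are described above. RS27A (AT3G61110), an RPS27 gene for a zinc-binding protein, had 80.2 RPM of footprints, 100.7 RPM of mRNA reads and a ratio of 0.66 (0.60 to 0.72).

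The other 40S families showed paralogs at more even levels. RPS3, a protein that lines the mRNA entry channel, comes from AT3G53870 with 229.8 RPM of footprints and 273.6 RPM of mRNA reads, AT2G31610 with 156.1 and 200.2, and AT5G35530 with 106.2 and 166.8. Their ratios were 0.74, 0.63 and 0.34, in the order of their levels. RPS4 was led by AT5G07090 with 237.0 and 273.6 RPM, followed by AT5G58420 with 140.3 and 156.9 and AT2G17360 with 135.9 and 199.6, at ratios of 0.78, 0.83 and 0.44. AT2G17360 thus had more mRNA than AT5G58420 and fewer footprints. RPS5A, the paralog expressed in dividing cells, had 204.7 and 303.0 RPM and RPS5B (AT2G37270) 99.1 and 140.9, with ratios of 0.43 and 0.49 whose difference had a counting interval that included 0. EMB3010 (AT5G10360), the second RPS6 gene, had 196.1 and 243.7 RPM and a ratio of 0.68. RPS13A (AT4G00100), also known for pointed first leaves, had 129.9 and 176.9 RPM and a ratio of 0.55. In RPS19, AT5G61170 with 111.8 and 126.1 RPM had a ratio of 0.82 and AT3G02080 with 114.3 and 158.8 RPM one of 0.52. The footprints of this pair were nearly equal while their mRNA levels differed. RPS28, the shortest member protein, comes from AT5G03850 with 38.2 and 67.0 RPM and AT5G64140 with 20.8 and 31.6 RPM, at ratios of 0.19 and 0.41.

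Among the other 60S families, RPL4 and RPL5 differed in how mRNA and footprints compared. RPL4, which reaches into the peptide exit tunnel, comes from AT5G02870 with 349.6 RPM of footprints and 425.8 RPM of mRNA reads and AT3G09630 with 293.6 and 329.5, at ratios of 0.71 and 0.82. RPL5 binds the 5S rRNA and comes from ATL5 (AT3G25520) with 271.1 and 492.7 RPM and RPL5B (AT5G39740) with 217.6 and 339.6, at ratios of 0.13 and 0.35. Shared coding windows made up 8.87% for ATL5 and 21.6% for RPL5B, so some of their reads could have been counted for another gene. Per kb of coding sequence, the RPL5 genes together had 918.6 RPM of mRNA reads against 617.7 for RPL4. Their footprints came to 539.3 RPM against 526.1. In RPL7, AT2G01250 had 199.3 and 267.2 RPM, AT2G44120 130.3 and 161.8, and AT3G13580 46.5 and 64.1, with ratios of 0.57, 0.68 and 0.54. AT4G36130, the weaker RPL8 gene, had 75.1 and 136.5 RPM and a ratio of 0.13 against 0.53 for EMB2296. In RPL10a, PGY1 (AT2G27530), a leaf patterning gene like PGY2, had 165.8 and 257.1 RPM, AT1G08360 97.1 and 177.6, and AT5G22440 44.8 and 75.7, with ratios of 0.36, 0.12 and 0.24. All 3 RPL10a genes lay below the members' median. AT2G37190 of the RPL12 family had 69.4 and 111.4 RPM and a ratio of 0.31, AT5G27850 of the RPL18 family 145.9 and 266.5 RPM and 0.12, and RPL24A (AT2G36620) 85.2 and 122.4 RPM and 0.47. Both RPL18 genes and both RPL12 genes were below the members' median, while both RPL9 and both RPL4 genes were above it.

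The size of the upward shift depended on the genes it was read against. Over 16825 tested genes the ratio fell with coding length (Spearman's rho -0.46, across genes of the same pair of libraries), and the members are short. Against the median of genes in the same of 10 length bins, the members' median was 0.13, 38 of 60 were above it, beside 8410 of 16825 genes. None of 60 was more than 2-fold above it, against 3.23% of all genes, and 1 of 60, RPS15A at -1.22, was more than 2-fold below, against 9.35%. Within the members, rho with coding length was 0.10 (n = 60). Among genes with at least 100 RPM of mRNA-seq exon reads, the median of 47 members was 0.37 above that of all 1572 such genes. The part of length and expression in the members' higher ratio was not tested.

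4 other lists were set beside the members. The 17 nuclear genes for plastid ribosomal proteins, which are imported into the chloroplast, had a median of 0.65, with 17 of 17 above the median of all tested genes, and 0.33 against their length bins. The 9 beta-tubulins, soluble cytosolic proteins, had a median of 0.55 and 0.60 against their length bins. The 15 genes listed as translation factors, which include poly(A)-binding protein genes and TCTP, had a median of 0.20. Of these, 3 were more than 2-fold below, namely the poly(A)-binding protein genes PAB2 at -2.60 and PAB4 at -1.39 and TCTP at -1.63, where the members had none. The lowest of the other genes in this list was eEF-1Bb1 at -0.39. The 9 ER chaperones, which are made on the ER, had a median of 0.96, and 3 of 9 were more than 2-fold above. Over all tested genes the members' median lay between those of the translation factors and the ER chaperones. Against the length bins the translation factors had 0.25 and the ER chaperones 1.18, and the members, at 0.13, had the lowest median of the 5 lists. These differences between lists were not tested, and the lists were chosen with earlier results of these data known.

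**Figure D3:**
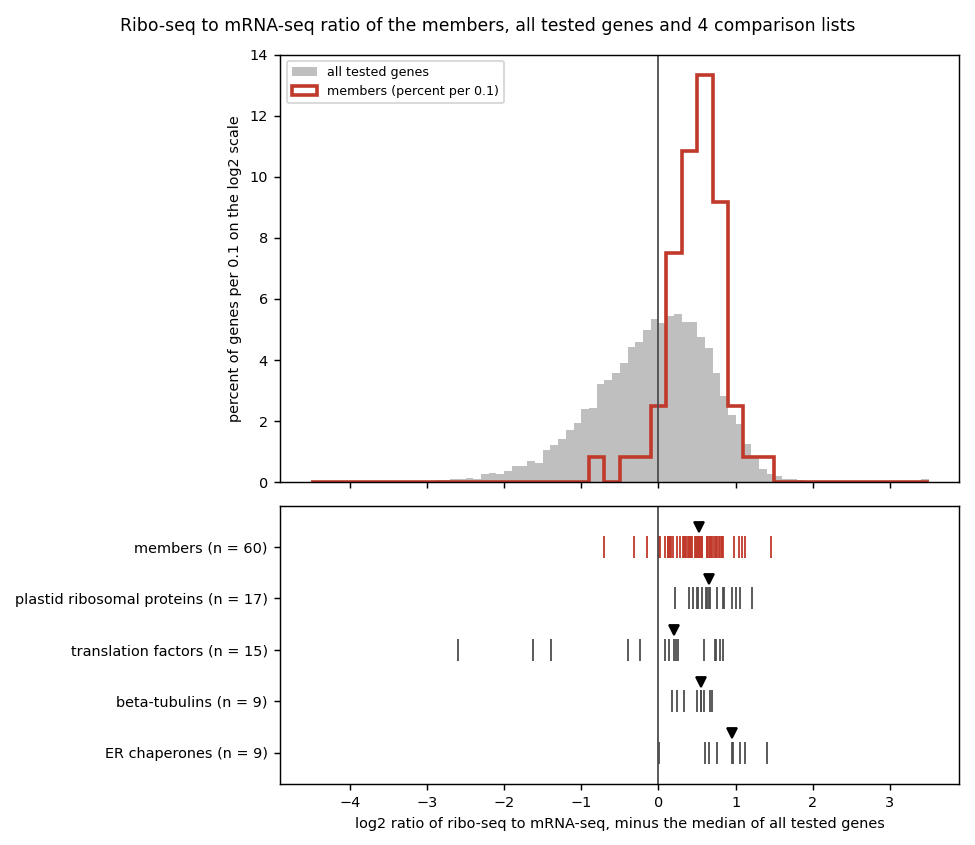
Upper panel: percent of genes per 0.1 of the log2 footprint to mRNA ratio, minus the median of all tested genes, for 16879 tested genes (grey, values beyond the axis in the outer bins) and 60 members (red outline). Lower panel: each gene of the members and of 4 lists as a tick, with a triangle at each median, where the members' median is 0.53 and that of the ER chaperones 0.96.

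Paralogs of a family mostly had similar ratios, but the ratios of all members also lay close together (quartiles of 0.30 and 0.71). Pairs of members from different families were not compared. Of 35 pairs in 25 families, 30 differed by less than 0.5 on the log2 scale, and the median difference was 0.23 between proteins with a median identity of 95.3%. The counting interval of the difference was above 0 in 29 of 35 pairs, so most pairs differed by more than the sampling of reads, without a replicate check. The paralog with the larger density was the same in both libraries in 22 of 25 families. The order turned in RPS6, where AT4G31700 held 55.1% of the family's density in ribo-seq and 48.0% in mRNA-seq, and in RPS24, where AT3G04920 held 53.2% and 40.9%. It turned also in RPS18, where PFL (AT1G22780) held 37.3% in ribo-seq and 33.9% in mRNA-seq, and RPS18C (AT4G09800) 33.8% and 39.8%.

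The largest difference was found for RPP0, the protein at the base of the ribosomal stalk. AT3G11250 stood 0.89 (0.80 to 0.99) above AT3G09200 on the log2 scale, 1.86-fold, although the proteins are 96.3% identical and share under 1% of their coding windows. AT3G09200 held 92.8% of the RPP0 density in mRNA-seq and 87.4% in ribo-seq. In RPS25, a small 40S protein, AT2G21580, with 60.7 RPM of footprints and 85.7 RPM of mRNA reads, stood 0.81 (0.73 to 0.91) above AT4G39200. Here 21.7% and 22.7% of the coding windows were shared with another gene or genome position, so some reads could have been counted for either. In RPS24, AT3G04920 stood 0.71 (0.64 to 0.79) above AT5G28060, which had 98.0 and 155.5 RPM. In RPL23a, RPL23AB stood 0.71 (0.64 to 0.81) above RPL23AA, which had 186.7 and 221.5 RPM. RPL23AA is the paralog that plants need for normal growth, and it held 82.5% of the family's density in mRNA-seq and 74.0% in ribo-seq. In each of these 4 families the paralog with less mRNA had the higher ratio, against 18 of all 35 pairs, and mRNA is also the denominator of the ratio.

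Identical proteins did not always come with identical ratios. The RPS18 family has 3 members for a single protein sequence, with coding sequences 87.1% to 91.1% identical. PFL (AT1G22780), named for the pointed first leaves of its mutant, had 79.8 RPM of footprints and 110.1 RPM of mRNA reads, a ratio of 0.53 (0.46 to 0.59). AT1G34030 had 61.7 and 85.6 RPM, a ratio of 0.52 (0.45 to 0.59). RPS18C (AT4G09800) had 72.4 and 129.4 RPM, a ratio of 0.16 (0.09 to 0.21), which was 0.37 (0.29 to 0.46) below PFL. Of the RPL9 pair, AT1G33120 had 159.3 and 187.3 RPM and AT1G33140 149.8 and 187.1 RPM, a difference of 0.09 (0.03 to 0.15).

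Since each ribosome needs about a copy of each protein, the densities were summed over the paralogs of each family. Over the 60 members, the sums ran from 153.8 (RPS15a) to 655.9 RPM per kb (RPS3) in ribo-seq and from 340.1 (RPL12) to 918.6 (RPL5) in mRNA-seq. The members do not hold every paralog. A protein search (at least 60% identity over at least 80% of both proteins) found 21 further genes in 14 of the families, 17 of which passed the filter. With them, the lowest sum rose to 316.2 RPM per kb (RPSA) in ribo-seq and the highest to 694.4 (RPL10), a 2.20-fold range. In mRNA-seq the range was 485.3 (RPSA) to 940.8 (RPL10), 1.94-fold. The third quartile over the first fell from 1.53 to 1.21 in ribo-seq and from 1.41 to 1.33 in mRNA-seq. In the 16 families with no further paralog it was 1.19 in ribo-seq and 1.27 in mRNA-seq. With all paralogs found, the middle families thus lay closer together in footprints than in mRNA, which did not hold for the 60 members alone.

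**Figure D4:**
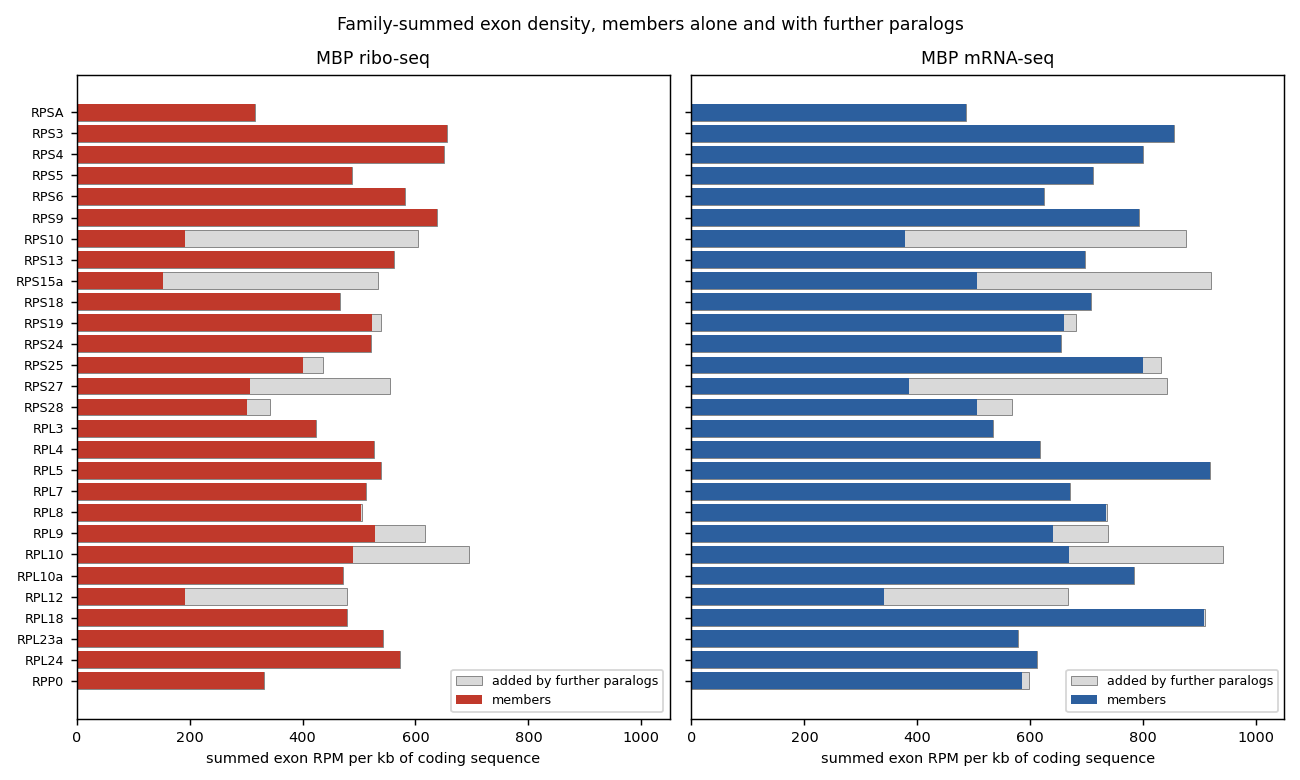
Exon RPM per kb of coding sequence summed over the paralogs of each of 28 families in MBP ribo-seq (left) and MBP mRNA-seq (right), for the members (coloured bars) and with further paralogs found by protein similarity (grey bars). RPS15a, RPS10, RPL12 and RPS27 gain most from the further paralogs, and RPSA has the lowest full sum in both libraries.

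In RPS15a the member and its family differed widely. RPS15A had 153.8 RPM per kb in ribo-seq and 505.4 in mRNA-seq, and the full family had 533.4 and 919.5. AT5G59850, which encodes the identical protein, had 94.3 RPM of footprints and 89.6 RPM of mRNA reads and a ratio of 1.06, against -0.71 for RPS15A, with no coding window of either shared with another gene. RPS15AD (AT3G46040) had 54.5 and 72.5 RPM and a ratio of 0.58. Other families that gained were RPS10, from 192.7 to 605.2 RPM per kb in ribo-seq, and RPL12, from 191.1 to 478.7. After this addition the lowest footprint sums were those of RPSA at 316.2, RPP0 at 332.5 and RPS28, which lies near the mRNA exit of the 40S subunit, at 341.8 RPM per kb. AT2G40010, a further RPP0 paralog, had 0.390 RPM in ribo-seq against 11.9 RPM in mRNA-seq, a ratio of -2.22.

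Over the 30 families, members alone, footprint and mRNA density had a Spearman's rho of 0.62, and over the 60 members footprint and mRNA RPM had a rho of 0.93. These are correlations across genes of the same 2 libraries.

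Footprints on the members were almost confined to the coding sequence. Of their ribo-seq reads 99.1% lay in exons (which behaved as coding sequence in these tables), 0.875% (3016 reads, Wilson interval 0.845 to 0.907) in 5' UTRs and 0.0583% (201 reads, 0.0508 to 0.0670) in 3' UTRs. The mRNA-seq reads of the same genes lay to 78.5% in exons, 5.27% in 5' UTRs and 16.2% in 3' UTRs. Over all genes, 3' UTRs held 3.11% of the ribo-seq reads and 12.2% of the mRNA-seq reads, so the members had a larger share of their mRNA reads in 3' UTRs than all genes together and a smaller share of their footprints. These shares pool the reads of all genes, so genes with many UTR reads weigh most and the share of a typical gene can differ. For 5' UTRs the values over all genes were 1.14% and 3.91%. Among genes with at least 100 RPM of mRNA-seq exon reads the order of the footprint shares turned, with 0.739% in 5' UTRs for the members and 0.563% for all such genes, beside 5.02% and 3.15% of the mRNA reads.

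UTR occupancy compares how footprints and mRNA reads divide between a UTR and the exons of its gene: the UTR value over the exon value was taken in each library, and the occupancy is log2 of the ribo-seq quotient over the mRNA-seq quotient (pseudocount 0.5). In 5' UTRs, 52 of 59 members with a value (the isoform used for RPS6, AT4G31700, has none) passed the filter (a mean UTR value of at least 0.5 RPM), with a median of -2.75 and a range of -4.50 to -0.77. The median of all 7029 genes was -0.87, and 24.2% of them were above 0 against 0 of 52 members. In 3' UTRs the 60 members had a median of -5.60 (range -6.94 to -0.75), all 11238 genes had -1.92, and 6.99% of these were above 0 against 0 of 60. No member had more than 0.338 RPM of 3' UTR footprints, less than the pseudocount, so the size of the members' 3' UTR values depends on it. Occupancy fell with expression over all genes, and the pseudocount holds genes with few UTR reads near 0. Among genes with at least 100 RPM of mRNA-seq exon reads, the 5' UTR median was -2.83 for 45 members and -1.91 for all 1375 genes with a value, and the 3' UTR median was -5.76 for 47 members and -4.41 for 1555. The members stayed lower in both UTRs at this level of expression, by less than over all genes.

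**Figure D5:**
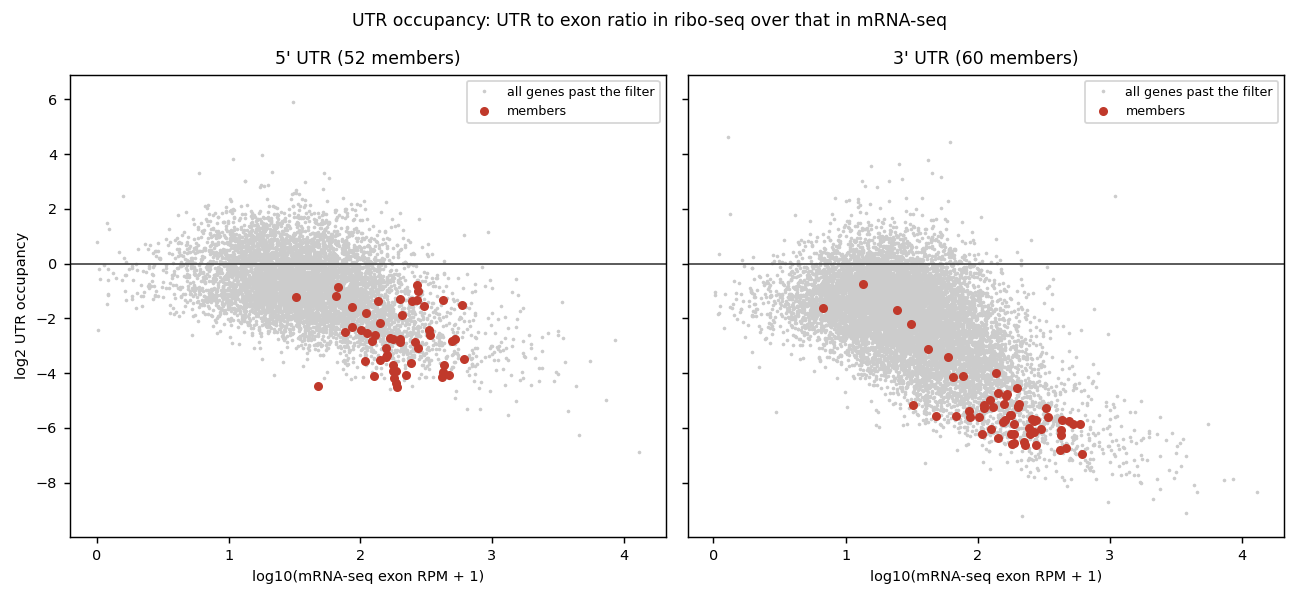
Log2 UTR occupancy (the UTR value over the exon value in ribo-seq, relative to the same quotient in mRNA-seq, pseudocount 0.5) against log10 of mRNA-seq exon RPM plus 1, for 5' UTRs (left, 52 members) and 3' UTRs (right, 60 members), with members in red, all genes past the filter in grey and a line at equal ratios. All members drawn lie below 0, at medians of -2.75 and -5.60.

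The 5' UTR footprints were spread unevenly over the members. AT5G27850 of the RPL18 family had 113 ribo-seq and 684 mRNA-seq reads in its 5' UTR, the highest occupancy at -0.77. AT5G03850 of the RPS28 family had 227 and 1334 reads, at -0.87, and AT5G07090 of the RPS4 family 143 and 619 reads, at -1.0. Paralogs differed here too, since RPL18 (AT3G05590) had 133 and 1309 reads and an occupancy of -1.36. RP1 (AT1G43170) had the most 5' UTR footprints with 319 reads against 2088 in mRNA-seq. At the low end, RPL23AB had 3 reads (0.0780 RPM, below the pseudocount of 0.5) against 591. Its occupancy of -4.48 therefore rests largely on the pseudocount. In 3' UTRs no member had more than 13 ribo-seq reads, and 8 members had none. The highest counts were 13 for AT5G15200 (7328 in mRNA-seq), 13 for RP1 (4006) and 10 for RPL23AA (5425). RPSAb, with 0 ribo-seq reads (an upper limit of 3 reads, or 0.0780 RPM) and 70 mRNA-seq reads, has the highest 3' UTR occupancy, a value that rests on the pseudocount like those of the other members.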

How the data were processed

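Per the submitters' processing notes and the study's methods, the authors aligned reads with TopHat2 2.0 (build TAIR10), and bedtools 2.23.0 placed a read in a feature that overlapped 80% of it. For RNA-seq in general the study describes collapsing identical reads and leaving out reads with several map positions. Whether either step was applied to these tables, and how strand was treated, is not given in the sources used here. The deposited values are RPM per isoform, for exons and for each UTR, in tables the authors normalised to library size. Since a read counts for each isoform it overlaps, the deposited mRNA-seq exon column sums to 1348200 and was treated as a signal rather than RPM in the strict sense. For RNA-seq in general the study describes polyA+ selection, and its ribo-seq protocol does not, so the libraries may differ in more than ribosome protection.

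The low values were whole multiples of 1 step, which gave 38438720 reads for ribo-seq and 66958226 for mRNA-seq (100% of values above 0 came out whole, within 0.05 reads or, for large values, a relative error of 2e-05). A count of 0 allows up to 3 reads, 0.0780 RPM for ribo-seq and 0.0448 for mRNA-seq. Of a gene's isoforms, the one with the larger mean exon value over both libraries stood for the gene. A size rule (over 2-fold from the median ratio) replaced tests, since each assay had 1 library. An exact binomial test of the recovered reads against the median gene, added after seeing the data and with Benjamini-Hochberg adjustment at 0.05, compares these libraries only and called 6734 of 16879 genes higher and 6685 lower, and 57 members higher and 2 lower.

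Members and lists were chosen with earlier results of these data known. Named by rule were the 6 highest and 6 lowest members by density and by ratio, the paralogs of the 4 families with the largest ratio difference, families with 1 member, the 3 highest in 5' UTR occupancy with at least 10 reads, the 3 with the most 3' UTR footprints, and identical proteins. Other genes were named after their values were seen. Coding sequences came from RefSeq (TAIR10.1, used for names, lengths and sequences), where all 60 members' isoforms matched, and 25034 of 25224 genes. Paralogs were found with blastp 2.17.0. Biopython 1.88, scipy 1.17.1, pandas 2.3.3 and numpy 2.4.6 were run under Python 3.11.15 (figures with matplotlib 3.10.9). The ratio rule was tested on simulated reads, where it called 100 of 100 genes raised 4-fold, 76 of 100 lowered 4-fold and 0 of 16679 unchanged genes. All unchanged genes were given the median ratio, so the simulation does not cover the spread between real genes. Alternatives covered pseudocounts, filters, isoforms, UTRs, length bins, scaling, denominators and shared windows. 2 members entered all counts and medians but are not reported singly here.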

Additional observations from a re-analysis of the deposited data

How the results depend on the processing

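The members' median ratio stayed above that of all tested genes in all 11 alternatives, from 0.13 to 0.68. It was 0.68 with a pseudocount of 0.1, 0.20 with a pseudocount of 5, 0.13 with no filter on low values, 0.35 with UTR values added, 0.13 against the coding length bin, 0.65 with each library rescaled to its summed exon value and 0.37 among genes of at least 100 RPM in mRNA-seq (added after seeing the data). Members more than 2-fold above numbered 1 with a pseudocount of 5 (0.995% of all genes) and 1 with no filter (1.18%). They numbered 0 against the length bin (3.23%) and 0 of 47 among genes of at least 100 RPM (4.33%). Members more than 2-fold below numbered 1 with no filter (15.4% of all genes) and 1 against the length bin (9.35%). The binomial test on recovered reads calls by counting error and not by size. It called 57 members higher and 2 lower, beside 6734 and 6685 of 16879 genes. The members above the median, 57 of 60 in the report, numbered 47 with a pseudocount of 5, 39 with no filter and 49 with UTR values. The share of exon reads ranged from 1.71% to 2.05% in ribo-seq and from 1.49% to 1.70% in mRNA-seq, with 1.78% and 1.49% for the first isoform, 2.05% and 1.70% for the sum over isoforms, 1.71% and 1.58% with UTRs, 2.02% and 1.60% without the highest genes in the denominator, and 1.82% and 1.49% without the genes at the start of chromosome 1, over a length equal to the plastid genome. The median of 40S minus 60S was -0.071 with UTR values. The 5' UTR median was -3.35 with a pseudocount of 0.1, -2.61 with no filter and -2.83 among genes of at least 100 RPM, and the 3' UTR median was -7.19, -5.69 with a UTR minimum of 2 RPM, and -5.76. The quartile ratio of the family sums was 1.99 in ribo-seq and 1.95 in mRNA-seq for summed isoforms, 1.48 and 1.50 with UTRs, 1.21 and 1.33 with further paralogs, and 1.19 and 1.27 in families with none. Ribo-seq was the more spread library for the members' exon values (1.53 and 1.41, also with the first isoform) and for summed isoforms, and the less spread one with UTRs, with further paralogs and in families with none. The cause of these shifts was not tested, beyond what each alternative changes by construction. The difference within RPP0 was 0.88 to 0.94 in all 7 of its alternatives. No paired analysis was possible because each assay had 1 library. The lack of replicates limits every value here, and UTR footprints of single members rest on few reads.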
